A study of Homo sapiens with 12 samples.

Results

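The 52 genes described here encode the machinery that licenses origins of DNA replication and runs the replication fork. They were taken as a fixed list of symbols, ordered by step, from the 43236 gene symbols counted in each library, and all 52 were among the 15979 genes expressed well enough to be tested. The cells were MNNG/HOS (HOS-MNNG in the labels), a human osteosarcoma line made by chemical transformation of HOS cells. Cultures received DMSO, the solvent, or 300 nM NXP800, a small oral molecule first developed against the heat shock factor HSF1 pathway, and RNA was taken after 6 h or 24 h. Each of the 4 conditions (DMSO 6 h, NXP800 6 h, DMSO 24 h, NXP800 24 h) had 3 replicate libraries. The study describes its results in general as independent experiments, while the labels and its sequencing methods do not say that these libraries came from separate cultures, so p-values measure the spread between these libraries. A single cell line at a single dose was sequenced, so the values describe MNNG/HOS cells and no other osteosarcoma line.

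Libraries held between 30810614 and 31947656 counts on genes. Between 6.66 and 8.14% of the reads of a 6 h library were assigned to no feature by the counter, against 2.73 to 3.67% in a 24 h library. Where those reads lie, within or outside genes, was not examined. Each NXP800 set is therefore compared here with the DMSO set of its own time. Of 8 mesenchymal and osteoblast markers, VIM was the highest, at group means between 3773 and 5371 CPM (counts scaled to a common library total), whereas COL1A2 and ALPL stayed at or below 0.302 CPM and 0.105 CPM. Among markers of other cell types, the epithelial KRT20 had no count in any library, and EPCAM was the highest. The summed level of these markers was 6.35 to 7.44 CPM in DMSO 6 h, 6.60 to 7.62 CPM in NXP800 6 h, 6.26 to 6.49 CPM in DMSO 24 h and 10.3 to 10.5 CPM in NXP800 24 h. EPCAM, an epithelial adhesion gene, was higher with NXP800 at 24 h (from 5.78 to 10.1 CPM, log2 fold change 0.81, adjusted p = 4.85e-06). Of the 8 markers of other cell types, 2 were tested. The one besides EPCAM was called lower at 6 h (log2 fold change -1.17, background: 27.8% lower) and was not called at 24 h (-0.56). EPCAM was the 1 called higher at 24 h (background: 27.5%). SPARC, a bone matrix gene, stood at 455 CPM in DMSO 24 h and 112 CPM in NXP800 24 h (-2.02, adjusted p = 2.69e-09). The mesenchymal and osteoblast markers did not all move that way. Of the 6 tested, 3 were called higher and 2 lower at 6 h (background: 25% and 27.8% of all tested genes). At 24 h 1 was called higher and 4 lower (background: 27.5% and 28.6%). RUNX2 read 27.4 CPM in DMSO 24 h and 35.2 CPM in NXP800 24 h. The part of these marker changes in the members' values was not tested.

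A chromosome is copied from many origins, each prepared before S phase and used once. The origin recognition complex, ORC1 to ORC6, binds the origin and, with CDC6 and CDT1, loads the ring-shaped helicase built from MCM2 to MCM7, a step called licensing, which geminin (GMNN) blocks by binding CDT1. In S phase the kinase CDC7 with its subunit DBF4 fires the origin. CDC45 and the GINS complex then join the ring to make the active CMG helicase. DNA polymerases alpha, delta and epsilon copy the strands. PCNA is the sliding clamp of the fork, and histones are placed on the new DNA by the CAF-1 complex. Many of these genes are known targets of E2F factors, which switch on transcription at the entry into S phase.

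The promoters are shown because transcription of replication genes is classically tied to the E2F motif. RefSeq promoters (GRCh38.p14) of 300 bases, 250 before and 50 after the start, were given for 46 of the 52 genes. At least 1 of the 8-letter words TTTCCCGC, TTTGGCGC, TTTCGCGC and TTTGCCGC, on either strand, stood in a promoter of 23 of these 46 genes (50%). The share was 6.52% of the 12235 tested genes with a promoter and 3.31% of all 35116 windows of that length. Of the 11 members that NXP800 lowered more than 2-fold at 24 h, 6 carried a word, as did 2 of the 5 members with a promoter that were not called lower. Those of the 11 with no word in any window were ORC1, CDC45, MCM10, TICRR and POLD1. CDC6 and GINS3 carried a word and were not called lower. The stretches printed below are examples and do not show this mix. Of them, PCNA and LIG1 are among the 11, and another window of PCNA had no word. The bases before the start of 5 members with a word and of ORC5, the member called higher at 24 h, which had none in these bases, are printed below 5′ to 3′ on the gene's strand, with the words in capitals. In MCM6 the words TTTGGCGC and, on the other strand, TTTCGCGC overlap. A match in these letters is a description and not evidence of binding.
PCNA: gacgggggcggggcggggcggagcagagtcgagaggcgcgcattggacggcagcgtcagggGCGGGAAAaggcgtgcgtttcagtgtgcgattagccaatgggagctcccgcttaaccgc
LIG1: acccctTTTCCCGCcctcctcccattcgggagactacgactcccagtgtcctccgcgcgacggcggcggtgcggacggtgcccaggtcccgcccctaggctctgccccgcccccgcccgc
MCM6: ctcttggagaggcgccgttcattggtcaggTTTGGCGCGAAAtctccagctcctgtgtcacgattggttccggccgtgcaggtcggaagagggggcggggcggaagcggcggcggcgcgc
CDT1: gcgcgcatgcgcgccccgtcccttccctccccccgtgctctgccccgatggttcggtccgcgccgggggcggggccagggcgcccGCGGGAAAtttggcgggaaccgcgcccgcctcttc
POLA2: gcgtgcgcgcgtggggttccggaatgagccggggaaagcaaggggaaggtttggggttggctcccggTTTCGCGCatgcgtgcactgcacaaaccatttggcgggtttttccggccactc
ORC5: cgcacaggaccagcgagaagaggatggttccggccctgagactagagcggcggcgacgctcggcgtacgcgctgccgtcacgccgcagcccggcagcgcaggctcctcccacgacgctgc
The stretches lie at chr20:5126623-5126742 for PCNA, chr19:48170345-48170464 for LIG1, chr2:135876444-135876563 for MCM6, chr16:88803669-88803788 for CDT1, chr11:65261842-65261961 for POLA2 and chr7:104208014-104208133 for ORC5. CDT1 and POLA2 are on the plus strand and the other four on the minus strand.

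NXP800 lowered most replication transcripts, in part at 6 h and nearly throughout the list at 24 h. At 6 h, 32 of the 52 members were lower than in DMSO (background: 27.8% of all tested genes), none was higher (background: 25%) and 20 did not pass the test. At 24 h, 46 were lower (background: 28.6%), 1, ORC5, was higher (background: 27.5%) and 5 did not pass. These calls are from edgeR's quasi-likelihood test over all tested genes at a Benjamini-Hochberg adjusted p below 0.05, and 4000 genes were called higher at 6 h by the same test. At an unadjusted p below 0.05, edgeR had 1 member higher at 6 h, RPA2, which DESeq2's Wald test also called. With the replicate number as a block, 35 members were lower and 2 higher at 6 h, and 47 were lower and 2 higher at 24 h. The share of all tested genes called with the block is not given here, and each background is that of the main fit. The median log2 fold change of the members was -0.31 at 6 h, against -0.046 for all tested genes, and -0.71 at 24 h, against -0.0033.

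The fall is also visible as a share of each library. The 52 transcripts together took 0.648% ± 0.0058 (SD, n = 3) of the counts in DMSO 6 h and 0.517% ± 0.0091 in NXP800 6 h. They took 0.602% ± 0.020 in DMSO 24 h and 0.392% ± 0.0054 in NXP800 24 h. For 35 members all 3 NXP800 libraries lay below all 3 DMSO libraries at 6 h (background: 32.7%), and at 24 h for 47 (background: 30.1%). More than 2-fold lower were ORC1 and GINS1 at 6 h (background: 5.23%) and 11 members at 24 h (background: 7.32%), namely ORC1, MCM3, MCM10, CDC45, GINS1, GINS2, TICRR, POLD1, POLE2, PCNA and LIG1. In bulk RNA, fewer cells in S phase and less of a transcript in each cell cannot be told apart.

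**Figure D1:**
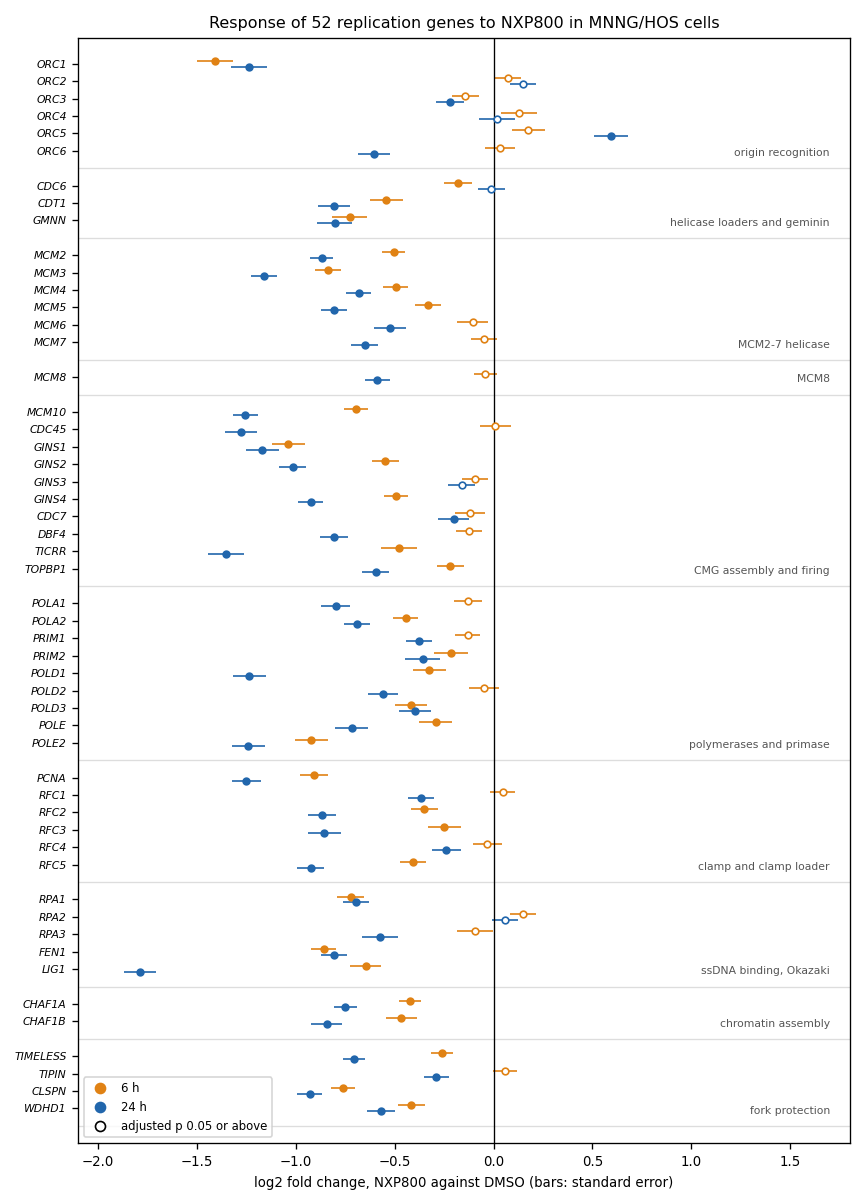
Log2 fold change of each of the 52 genes (y axis, grouped by step) with NXP800 against DMSO at 6 h (orange) and 24 h (blue), with standard errors. Filled points passed an adjusted p of 0.05, and open points did not. The blue points lie left of 0 for 48 genes, and ORC5 stands alone as a filled point to the right.

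The origin recognition complex had the widest range of responses of any step at 6 h, with log2 fold changes from -1.41 to 0.17, and was the step with calls in both directions at 24 h. ORC1, the subunit whose level is known to vary with the cell cycle, read 78.3, 72.7 and 75.9 CPM in the DMSO 6 h libraries and 28.9, 28.9 and 27.6 CPM in NXP800 6 h. At 24 h its levels were 102, 90.7 and 85.5 CPM in DMSO and 45.7, 34.9 and 37.3 CPM in NXP800. ORC1 was thus 2.66-fold lower at 6 h (log2 fold change -1.41 ± 0.091, SE, adjusted p = 4.54e-09) and 2.36-fold lower at 24 h (-1.24 ± 0.089, adjusted p = 9.71e-09), the steepest fall of any member at 6 h. ORC6, the smallest subunit, read 99.2, 113 and 105.3 CPM in DMSO 6 h and 112, 102 and 111 CPM in NXP800 6 h, and the groups overlapped. At 24 h it read 79.6, 85.8 and 70.5 CPM in DMSO and 53.4, 54.02 and 47.6 CPM in NXP800, without overlap (log2 fold change -0.61 ± 0.080, adjusted p = 8.41e-06). ORC5 went the other way. Its levels were 34.7, 32.03 and 36.4 CPM in DMSO 6 h and 38.8, 40.3 and 37.3 CPM in NXP800 6 h. At 24 h they were 30.6, 26.6 and 25.8 CPM in DMSO and 40.2, 39.003 and 46.01 CPM in NXP800. The NXP800 libraries lay above the DMSO libraries at both times, with a 24 h log2 fold change of 0.59 ± 0.085 (adjusted p = 1.84e-05). The 6 h log2 fold change of ORC5 was 0.17 ± 0.084 (adjusted p = 0.0903, or 0.0467 with the replicate block and 0.0212 with only the 6 libraries of that time). ORC2 and ORC4, further subunits of the ring that grips DNA, had log2 fold changes of 0.15 and 0.017 at 24 h and did not pass (adjusted p = 0.0708 and 0.890). For ORC2 the replicate block gave an adjusted p of 0.0209 and library-size scaling gave 0.00828. Leaving out DMSO 24 h replicate 3 gave 0.0227 and leaving out NXP800 24 h replicate 1 gave 0.0397. ORC3, the partner of ORC2, was slightly lower at 24 h (-0.22, adjusted p = 0.0120). The call was lost without NXP800 24 h replicate 2 (adjusted p = 0.0973), with library-size scaling (0.0810) and with no filter on low counts (0.0563). Its 6 h log2 fold change was -0.14 (adjusted p = 0.0885, or 0.0284 with the block and 0.0370 without DMSO 6 h replicate 3).

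The helicase loaders also parted. CDC6, the ATPase that completes the loading machine, read 148, 161 and 147 CPM in DMSO 6 h and 127, 138 and 138 CPM in NXP800 6 h. At 24 h its levels were 159, 157 and 162 CPM in DMSO and 155, 174 and 145 CPM in NXP800. The DMSO and NXP800 libraries overlapped at 24 h, where the log2 fold change was -0.012 ± 0.069 (adjusted p = 0.900). The small 6 h fall (-0.18 ± 0.069, adjusted p = 0.0375) was lost without DMSO 6 h replicate 1 (adjusted p = 0.0504) or 2 (0.154), and without NXP800 6 h replicate 1 (0.157), 2 (0.0555) or 3 (0.0534). That call was also lost by DESeq2's Wald test (adjusted p = 0.0511), with DESeq2's size factors (0.05005), with library-size scaling (0.0809) and with no filter on low counts (0.0596). CDT1, which brings the MCM ring to the origin, read 74.2, 79.1 and 77.5 CPM in DMSO 6 h and 54.5, 52.7 and 51.4 CPM in NXP800 6 h. At 24 h the levels were 111, 105.3 and 109 CPM in DMSO and 67.96, 51.7 and 65.7 CPM in NXP800. The groups were apart at both times (log2 fold changes -0.54 ± 0.082 and -0.81 ± 0.081, adjusted p = 3.88e-05 and 4.44e-07). GMNN, the inhibitor of CDT1, read 45.8, 51.9 and 46.4 CPM in DMSO 6 h and 27.9, 30.9 and 28.2 CPM in NXP800 6 h. At 24 h the GMNN levels were 38.7, 40.7 and 47.04 CPM in DMSO and 25.9, 21.98 and 24.6 CPM in NXP800. Inhibitor and loader fell together, GMNN with log2 fold changes of -0.73 ± 0.087 and -0.80 ± 0.089 (adjusted p = 3.84e-06 and 1.22e-06). The log2 CPM of CDT1 minus that of GMNN was 0.68 ± 0.068 (SD, n = 3) in DMSO 6 h and 0.87 ± 0.099 in NXP800 6 h, and 1.36 ± 0.15 in DMSO 24 h and 1.35 ± 0.099 in NXP800 24 h. All 3 NXP800 6 h libraries lay above the DMSO 6 h libraries in it, by 0.27, 0.16 and 0.13 within replicates 1, 2 and 3, and the 24 h groups overlapped. No test was run on this value, for which an exact permutation test of 3 against 3 libraries cannot go below p = 0.1.

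All 6 subunits of the MCM helicase were lower at 24 h (background: 28.6%), and 4 of them, MCM2 to MCM5, already at 6 h (background: 27.8%). MCM2 read 270.2, 260.2 and 255 CPM in DMSO 6 h and 183, 188 and 183 CPM in NXP800 6 h. At 24 h MCM2 read 335, 333 and 330.2 CPM in DMSO and 191, 169.7 and 186 CPM in NXP800, with no overlap at either time (log2 fold changes -0.50 ± 0.058 and -0.87 ± 0.058). MCM3, the subunit with the steepest fall, read 233, 225 and 210.1 CPM in DMSO 6 h and 124, 129 and 121 CPM in NXP800 6 h. At 24 h its levels were 244, 267 and 231 CPM in DMSO and 108, 116 and 107 CPM in NXP800. That put MCM3 1.79-fold lower at 6 h and 2.24-fold lower at 24 h (log2 fold changes -0.84 ± 0.066 and -1.16 ± 0.067, adjusted p = 4.21e-08 and 8.90e-10). MCM4, part of the catalytic core, had log2 fold changes of -0.49 ± 0.063 and -0.68 ± 0.064. MCM5, which forms the gate of the ring with MCM2, read 199.7, 201 and 199 CPM in DMSO 6 h and 159.5, 162 and 155 CPM in NXP800 6 h. At 24 h it read 229.9, 217 and 207 CPM in DMSO and 136, 115 and 122 CPM in NXP800, and the fall was steeper than at 6 h (-0.80 against -0.33, difference -0.47 ± 0.092, adjusted p = 0.00148). MCM6 and MCM7 were late. MCM6 read 145, 145 and 130.00 CPM in DMSO 6 h and 130.2, 133 and 127 CPM in NXP800 6 h, with overlap. At 24 h the levels were 139, 128 and 117 CPM in DMSO and 97.8, 89.6 and 79.99 CPM in NXP800, without overlap (log2 fold change -0.52 ± 0.079, adjusted p = 3.41e-05). MCM7 read 814, 882 and 869 CPM in DMSO 6 h and 795, 841 and 845 CPM in NXP800 6 h. At 24 h MCM7 read 950.3, 975 and 926 CPM in DMSO and 646, 573 and 595 CPM in NXP800. The 6 h groups of MCM7 overlapped (-0.048, adjusted p = 0.568) and the 24 h groups did not (-0.65 ± 0.066, adjusted p = 4.74e-07). MCM8, a relative of these subunits that works in repair and is not part of the licensing ring, read 86.1, 90.7 and 87.6 CPM in DMSO 6 h and 86.03, 87.7 and 83.3 CPM in NXP800 6 h. At 24 h it read 59.2, 55.01 and 59.4 CPM in DMSO and 40.7, 38.4 and 36.5 CPM in NXP800. Like MCM6 and MCM7, it was not called at 6 h (-0.041, adjusted p = 0.587) and lower at 24 h (-0.59 ± 0.062, adjusted p = 6.96e-07). In GENCODE, 33.3% of the exon length of MCM8 and 23.6% of that of MCM2 is shared with another gene. The overlap is on the same strand for MCM8 and on the opposite strand for MCM2.

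Corrected for exon length (CPM per kb of exon), the 6 ring subunits had unequal values, although the ring holds them in equal number. The length counts every GENCODE exon of a gene over all its transcripts. An order between genes therefore depends on the annotation as well as on the RNA. MCM7 was the highest in each condition, at 172 ± 7.3 (SD, n = 3) in DMSO 6 h, 167 ± 5.6 in NXP800 6 h, 192 ± 4.9 in DMSO 24 h and 122 ± 7.6 in NXP800 24 h. MCM5 was the lowest in each, at 27.5 ± 0.14, 21.9 ± 0.53, 29.96 ± 1.6 and 17.2 ± 1.5. Before the correction MCM5 was above MCM6 (200 against 140 CPM in DMSO 6 h), but its exon length is greater (7268 against 4135 bp). In DMSO 24 h the neighbours MCM2, MCM3 and MCM4 (70.6 ± 0.54, 67.8 ± 5.0 and 64.9 ± 2.3) followed MCM7, with MCM3 within its own SD of each of the others. MCM5 lay within 1 SD of MCM6 (30.98 ± 2.7). In NXP800 24 h MCM3 (30.3 ± 1.3) lay below MCM2 (38.6 ± 2.3) and MCM4 (40.5 ± 2.0). Among ORC subunits ORC1 was the highest per length in DMSO 24 h (29.7 ± 2.6). In NXP800 24 h it stood with ORC6 (12.6 ± 1.8 and 11.99 ± 0.82) and close to ORC5 (11.2 ± 1.0).

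**Figure D2:**
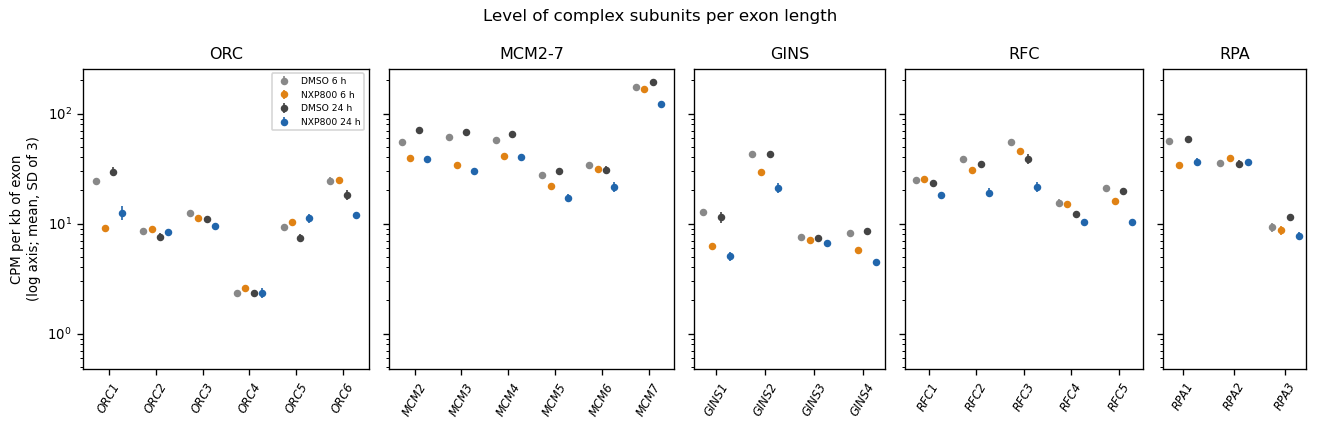
Level of the subunits of 5 complexes as CPM per kb of exon (log axis), as the mean and SD of 3 libraries in DMSO 6 h (light grey), NXP800 6 h (orange), DMSO 24 h (dark grey) and NXP800 24 h (blue). MCM7 is the highest MCM subunit in all 4 conditions, and the blue point is not below the dark grey one for ORC2, ORC4, ORC5 and RPA2.

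Origin firing and helicase assembly held 5 of the 11 members that fell more than 2-fold at 24 h. CDC45 was level at 6 h and low at 24 h. It read 64.9, 66.8 and 68.1 CPM in DMSO 6 h and 67.7, 66.5 and 66.7 CPM in NXP800 6 h, a log2 fold change of 0.0081 ± 0.078 (adjusted p = 0.938). At 24 h the levels were 61.7, 69.5 and 57.4 CPM in DMSO and 27.6, 27.2 and 22.9 CPM in NXP800. All NXP800 24 h libraries of CDC45 were below every other library, 2.43-fold lower than DMSO (log2 fold change -1.28 ± 0.081, adjusted p = 2.48e-09). MCM10, which helps the assembled helicase to start, read 161, 155 and 149 CPM in DMSO 6 h and 96.5, 96.1 and 93.8 CPM in NXP800 6 h. At 24 h its levels were 139, 137 and 142 CPM in DMSO and 61.5, 53.3 and 60.7 CPM in NXP800. MCM10 fell at both times, more at 24 h (-0.70 ± 0.061 and -1.25 ± 0.063, adjusted p = 1.36e-07 and 2.13e-10). TICRR (treslin), which with TOPBP1 brings CDC45 to the origin, read 21.7, 20.4 and 22.7 CPM in DMSO 6 h and 15.01, 14.4 and 17.1 CPM in NXP800 6 h. At 24 h TICRR read 28.8, 29.2 and 28.6 CPM in DMSO and 12.2, 11.7 and 10.1 CPM in NXP800. It was 2.56-fold lower at 24 h, second to LIG1 among the members (log2 fold change -1.35 ± 0.092, adjusted p = 4.91e-09), and 1.39-fold lower at 6 h. TOPBP1 read 104.6, 114 and 109 CPM in DMSO 6 h and 91.2, 98.2 and 92.7 CPM in NXP800 6 h. At 24 h it read 102, 106 and 97.1 CPM in DMSO and 69.7, 71.4 and 61.2 CPM in NXP800, a clear separation (-0.60 ± 0.068, adjusted p = 1.68e-06). Its smaller 6 h fall (-0.22, adjusted p = 0.0115) was lost without DMSO 6 h replicate 2 (adjusted p = 0.0546) or NXP800 6 h replicate 1 (0.0503).

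Within the 4-subunit GINS complex the responses ran from a more than 2-fold fall to no call. GINS1 read 108, 102 and 95.5 CPM in DMSO 6 h and 49.3, 51.4 and 48.2 CPM in NXP800 6 h. At 24 h GINS1 read 94.3, 99.1 and 79.9 CPM in DMSO and 44.2, 40.3 and 37.1 CPM in NXP800. It was 2.05-fold lower at 6 h and 2.25-fold lower at 24 h (log2 fold changes -1.04 ± 0.084 and -1.17 ± 0.085). GINS2 read 137, 142 and 132 CPM in DMSO 6 h and 95.03, 92.5 and 94.1 CPM in NXP800 6 h. At 24 h GINS2 read 137, 133 and 139 CPM in DMSO and 75.1, 61.3 and 66.5 CPM in NXP800, apart at both times (-0.55 ± 0.067 and -1.02 ± 0.068). GINS4 read 45.8, 44.5 and 43.3 CPM in DMSO 6 h and 31.1, 31.8 and 31.96 CPM in NXP800 6 h. At 24 h GINS4 read 44.9, 47.3 and 46.5 CPM in DMSO and 24.8, 24.8 and 23.4 CPM in NXP800, again apart (-0.49 ± 0.061 and -0.93 ± 0.062). GINS3 read 38.9, 40.2 and 36.8 CPM in DMSO 6 h and 37.4, 36.96 and 34.2 CPM in NXP800 6 h, with overlap. At 24 h GINS3 read 39.2, 38.03 and 36.2 CPM in DMSO and 35.2, 34.1 and 32.2 CPM in NXP800. The 24 h groups of GINS3 did not overlap, yet the fall was small (-0.16 ± 0.068) and its adjusted p was 0.0563, or 0.0139 with the replicate block and 0.0465 without DMSO 24 h replicate 3. The exons of GINS3 and GINS4 are shared with other genes over 10.9% and 23.4% of their length, on the opposite strand. DBF4, the activating subunit of the kinase that fires origins, read 36.9, 36.8 and 34.5 CPM in DMSO 6 h and 32.2, 33.8 and 33.3 CPM in NXP800 6 h. At 24 h DBF4 read 32.7, 30.03 and 30.4 CPM in DMSO and 17.996, 16.96 and 18.3 CPM in NXP800, 1.75-fold lower (-0.81 ± 0.070, adjusted p = 7.45e-08). CDC7, its catalytic subunit, had a 24 h log2 fold change of -0.20 ± 0.079 (adjusted p = 0.0389), after -0.12 at 6 h (adjusted p = 0.212). The 24 h call of CDC7 was lost without DMSO 24 h replicate 1 (adjusted p = 0.161) or 3 (0.0548) and without NXP800 24 h replicate 3 (0.187), and by DESeq2's Wald test (0.0555). Library-size scaling (adjusted p = 0.266), no filter on low counts (0.0830) and a fit of only the 6 libraries of that time (0.114) ended it too. The difference in response between DBF4 and CDC7 was not tested.

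**Figure D3:**
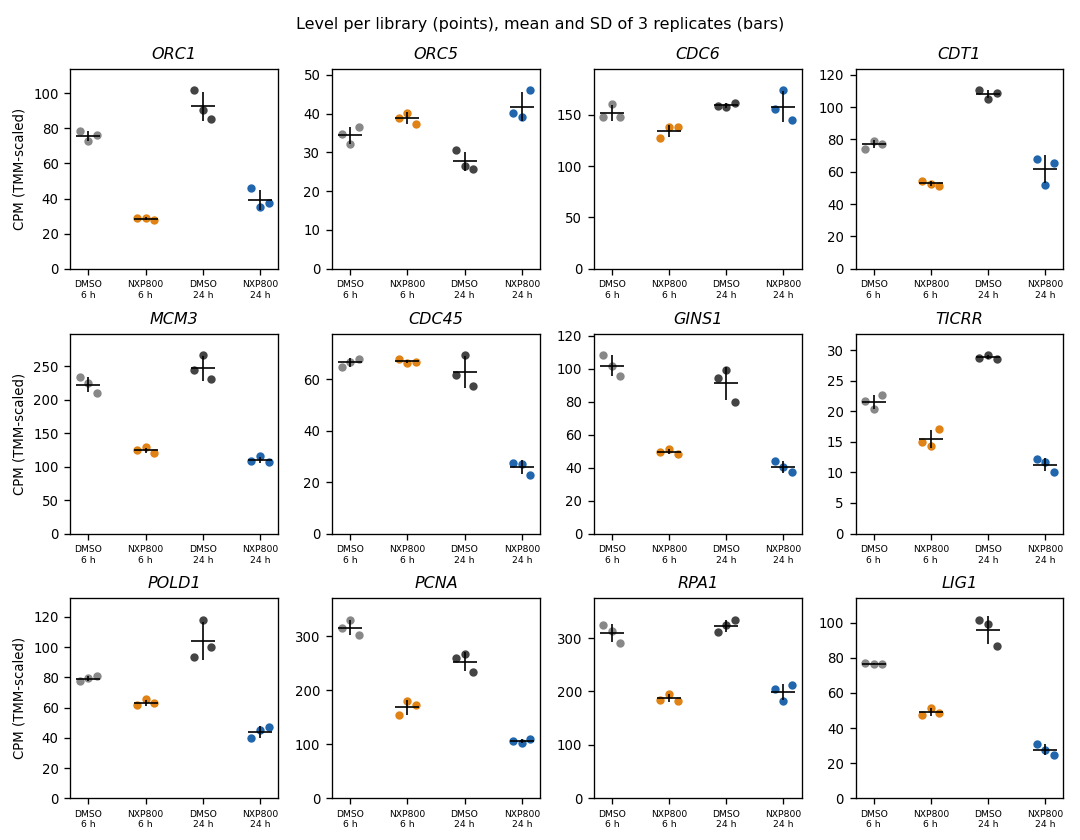
Level in CPM (TMM-scaled, y axes from 0) of 12 members in each of the 12 libraries (points in replicate order), with the mean and SD of each group of 3 as a black cross. CDC45 is level at 6 h and low in NXP800 24 h, CDC6 overlaps between the 24 h groups, and ORC5 is higher with NXP800 at 24 h.

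All 9 polymerase and primase subunits were lower at 24 h (background: 28.6%), and 6 of them at 6 h (background: 27.8%). POLD1, the catalytic subunit of polymerase delta, read 77.4, 79.5 and 80.7 CPM in DMSO 6 h and 61.4, 65.5 and 62.7 CPM in NXP800 6 h. At 24 h POLD1 read 93.7, 118 and 99.9 CPM in DMSO and 39.7, 45.1 and 47.5 CPM in NXP800. It was 1.25-fold lower at 6 h and 2.35-fold lower at 24 h (log2 fold changes -0.32 ± 0.082 and -1.24 ± 0.083, adjusted p = 0.00326 and 4.57e-09). POLD2, an accessory subunit of the same enzyme, read 184, 186 and 168 CPM in DMSO 6 h and 183, 179 and 158 CPM in NXP800 6 h, which overlapped. At 24 h POLD2 read 236, 233 and 245 CPM in DMSO and 171, 144 and 171 CPM in NXP800, without overlap (-0.56 ± 0.076). POLD3, the subunit with a PCNA-binding tail, fell about as much at 6 h (-0.42 ± 0.079) as at 24 h (-0.40 ± 0.081). POLE, the catalytic subunit of polymerase epsilon, read 79.2, 72.4 and 87.9 CPM in DMSO 6 h and 66.6, 61.4 and 67.4 CPM in NXP800 6 h. At 24 h POLE read 112, 119.6 and 97.3 CPM in DMSO and 65.7, 69.9 and 64.3 CPM in NXP800, apart at both times (-0.29 ± 0.083 and -0.72 ± 0.083). POLE2, the subunit that links this polymerase to the helicase, read 33.2, 31.7 and 29.8 CPM in DMSO 6 h and 16.9, 17.7 and 15.4 CPM in NXP800 6 h. At 24 h POLE2 read 24.2, 27.4 and 24.8 CPM in DMSO and 10.8, 11.1 and 10.4 CPM in NXP800. It was 1.89-fold lower at 6 h, the steepest 6 h fall of this step, and 2.36-fold lower later (adjusted p = 1.45e-07 and 5.49e-09). POLA1, the catalytic subunit of polymerase alpha, which extends the primers, read 53.8, 49.6 and 50.5 CPM in DMSO 6 h and 48.2, 46.5 and 46.1 CPM in NXP800 6 h. At 24 h POLA1 read 49.4, 47.3 and 52.7 CPM in DMSO and 26.7, 27.7 and 31.5 CPM in NXP800. The 24 h fall was 1.74-fold (-0.80 ± 0.073, adjusted p = 1.51e-07), and the 6 h value was -0.13 (adjusted p = 0.143, or 0.0395 with the block). POLA2, its partner, fell at both times (-0.44 ± 0.063 and -0.69 ± 0.064). The primase subunits had the smallest 24 h falls of this step. PRIM1 was at -0.13 at 6 h (adjusted p = 0.0964, or 0.0468 with the block) and lower at 24 h, at -0.38 ± 0.065. PRIM2 read 23.8, 22.7 and 21.6 CPM in DMSO 6 h and 21.3, 19.1 and 18.3 CPM in NXP800 6 h. At 24 h PRIM2 read 23.8, 20.5 and 23.8 CPM in DMSO and 17.3, 17.2 and 18.6 CPM in NXP800. The PRIM2 groups did not overlap at either time, with log2 fold changes of -0.21 ± 0.086 and -0.36 ± 0.087 (adjusted p = 0.0459 and 0.00222). Its 6 h call was lost in 8 of the 12 fits that left out a library, with adjusted p up to 0.171, and by DESeq2's Wald test (adjusted p = 0.0947). The 8 were the fits without DMSO 6 h replicate 1 (adjusted p = 0.151) or 2 (0.0917), NXP800 6 h replicate 2 (0.125) or 3 (0.171), DMSO 24 h replicate 1 (0.0501) or 3 (0.0505) and NXP800 24 h replicate 1 (0.0511) or 2 (0.0843). DESeq2's size factors (adjusted p = 0.0678), library-size scaling (0.0605), no filter on low counts (0.101) and a fit of only the 6 libraries of that time (0.0638) also ended the PRIM2 call. POLA2 and PRIM1 share 21.3% and 19.1% of their exon length with other genes, 16.8% and 15.1% on the same strand.

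The sliding clamp fell more than any subunit of its loader. PCNA, the ring that holds polymerases on DNA, read 315, 330.3 and 302 CPM in DMSO 6 h and 153, 179 and 173 CPM in NXP800 6 h. At 24 h PCNA read 259, 268 and 233 CPM in DMSO and 106, 103 and 109.7 CPM in NXP800. Every NXP800 library was below every DMSO library, 1.87-fold lower at 6 h and 2.38-fold lower at 24 h (log2 fold changes -0.91 ± 0.071 and -1.25 ± 0.072, adjusted p = 3.84e-08 and 9.02e-10). Per length it went from 225 ± 10 to 120.1 ± 9.7 CPM per kb of exon at 6 h and from 180.4 ± 13 to 75.8 ± 2.3 at 24 h. PCNA has 3 pseudogenes by name in GENCODE, with which reads may be shared. The loader, replication factor C, opens the clamp. RFC1, its large subunit, read 174, 165 and 159 CPM in DMSO 6 h and 167, 181 and 165 CPM in NXP800 6 h. At 24 h RFC1 read 156, 151 and 161 CPM in DMSO and 118, 131 and 114 CPM in NXP800, a fall at 24 h alone (-0.37 ± 0.066, adjusted p = 1.65e-04). RFC2 read 84.5, 90.9 and 83.2 CPM in DMSO 6 h and 70.2, 67.5 and 65.1 CPM in NXP800 6 h. At 24 h RFC2 read 75.2, 76.5 and 79.8 CPM in DMSO and 45.9, 38.2 and 42.8 CPM in NXP800, apart at both times (-0.35 ± 0.069 and -0.87 ± 0.071). RFC3 read 153, 163 and 151 CPM in DMSO 6 h and 131, 137 and 125 CPM in NXP800 6 h. At 24 h RFC3 read 122, 113 and 98.4 CPM in DMSO and 66.5, 63.4 and 54.1 CPM in NXP800, a separation at both times (-0.25 ± 0.083 and -0.86 ± 0.085). The 6 h call of RFC3 (adjusted p = 0.0184) was lost without DMSO 6 h replicate 2 (0.0745) or NXP800 6 h replicate 3 (0.0735). RFC5 read 67.5, 73.7 and 65.6 CPM in DMSO 6 h and 54.5, 53.5 and 47.99 CPM in NXP800 6 h. At 24 h RFC5 read 62.4, 66.3 and 62.4 CPM in DMSO and 33.7, 33.05 and 33.98 CPM in NXP800, the steepest fall of the loader (-0.41 ± 0.067 and -0.92 ± 0.068). RFC4 was the least moved of the loader. It read 44.4, 50.4 and 43.9 CPM in DMSO 6 h and 44.7, 47.1 and 43.8 CPM in NXP800 6 h, with overlap. At 24 h RFC4 read 35.5, 38.3 and 35.4 CPM in DMSO and 28.6, 32.6 and 31.4 CPM in NXP800, without overlap. It was lower at 24 h (-0.24 ± 0.075, adjusted p = 0.0130) but not called at 6 h (-0.031, adjusted p = 0.745). Its 24 h call was lost without DMSO 24 h replicate 2 (adjusted p = 0.0578), without NXP800 24 h replicate 1 (0.0645) and with library-size scaling (0.142).

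The single-strand binding complex RPA and the enzymes that join Okazaki fragments held both the steepest fall of the list and a transcript that was not called. LIG1, the ligase that seals the nicks between lagging-strand fragments, read 76.9, 76.7 and 76.5 CPM in DMSO 6 h and 47.3, 51.5 and 48.3 CPM in NXP800 6 h. At 24 h LIG1 read 102, 99.2 and 86.8 CPM in DMSO and 30.9, 27.5 and 24.9 CPM in NXP800. It was 1.57-fold lower at 6 h and 3.45-fold lower at 24 h (log2 fold changes -0.65 ± 0.078 and -1.79 ± 0.081, adjusted p = 4.08e-06 and 9.13e-11), with no overlap at either time. FEN1, the flap nuclease that trims the same fragments, read 149, 157 and 151 CPM in DMSO 6 h and 81.2, 81.4 and 89.4 CPM in NXP800 6 h. At 24 h FEN1 read 178, 178 and 199 CPM in DMSO and 111, 101 and 105.5 CPM in NXP800. FEN1 fell at both times (-0.86 ± 0.065 and -0.81 ± 0.065), and the difference between the times was 0.052 ± 0.091 (adjusted p = 0.724). Among the RPA subunits, RPA1, the large DNA-binding subunit, read 325, 312 and 292 CPM in DMSO 6 h and 185, 196 and 182 CPM in NXP800 6 h. At 24 h RPA1 read 312, 323 and 334 CPM in DMSO and 205, 182 and 212 CPM in NXP800, with like falls at both times (-0.72 ± 0.068 and -0.70 ± 0.068). RPA2, the subunit phosphorylated under replication stress, read 68.4, 73.1 and 71.4 CPM in DMSO 6 h and 83.5, 77.1 and 75.6 CPM in NXP800 6 h. At 24 h RPA2 read 65.2, 75.02 and 68.02 CPM in DMSO and 72.2, 74.5 and 70.1 CPM in NXP800. At 6 h its NXP800 libraries were the higher set (0.15 ± 0.065, adjusted p = 0.0647, or 0.0229 with the block, 0.0303 without NXP800 24 h replicate 2 and 0.0467 by DESeq2's Wald test). RPA2 also passed at 6 h with DESeq2's size factors (adjusted p = 0.0433) and with only the 6 libraries of that time (0.0170). At 24 h the groups overlapped (0.058 ± 0.066, adjusted p = 0.470). RPA3, the smallest subunit, read 30.1, 32.8 and 26.7 CPM in DMSO 6 h and 29.1, 29.7 and 25.02 CPM in NXP800 6 h. At 24 h RPA3 read 35.998, 36.4 and 39.1 CPM in DMSO and 27.04, 23.5 and 24.3 CPM in NXP800, a fall at 24 h (-0.57 ± 0.091, adjusted p = 5.12e-05) after overlap at 6 h. RPA2 and RPA3 have 3 and 2 pseudogenes by name, and FEN1 has 1.

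CHAF1A and CHAF1B, the larger subunits of CAF-1, which places histones H3 and H4 on new DNA, fell at both times. CHAF1A read 116, 106 and 106 CPM in DMSO 6 h and 82.1, 81.7 and 80.6 CPM in NXP800 6 h. At 24 h CHAF1A read 122, 123 and 126 CPM in DMSO and 74.1, 70.3 and 76.5 CPM in NXP800, log2 fold changes of -0.42 ± 0.057 and -0.75 ± 0.057. CHAF1B read 59.6, 59.4 and 57.6 CPM in DMSO 6 h and 42.7, 41.6 and 43.4 CPM in NXP800 6 h. At 24 h CHAF1B read 54.4, 56.8 and 49.7 CPM in DMSO and 33.4, 29.97 and 26.4 CPM in NXP800, log2 fold changes of -0.47 ± 0.078 and -0.84 ± 0.080. The groups of both genes did not overlap at either time (adjusted p = 1.79e-08 and 2.18e-07 at 24 h). RBBP4, the third subunit of CAF-1, which also serves other chromatin complexes, was not a member and was chosen after its values were seen. It too was lower at both times, with log2 fold changes of -0.81 ± 0.060 and -0.42 ± 0.059 (adjusted p = 1.90e-08 and 1.51e-05).

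The fork protection genes were all lower at 24 h (background: 28.6%), and 3 of the 4 at 6 h (background: 27.8%). CLSPN (claspin), the mediator that passes the ATR checkpoint signal on to CHK1, read 56.9, 51.1 and 54.7 CPM in DMSO 6 h and 32.1, 32.4 and 31.3 CPM in NXP800 6 h. At 24 h CLSPN read 46.8, 48.6 and 49.4 CPM in DMSO and 25.03, 25.4 and 25.6 CPM in NXP800. It had the steepest fall of the step at both times (-0.76 ± 0.062 and -0.93 ± 0.063, adjusted p = 6.00e-08 and 5.15e-09). TIMELESS, which with TIPIN steadies the fork, read 134, 134 and 126 CPM in DMSO 6 h and 111, 109 and 108 CPM in NXP800 6 h. At 24 h TIMELESS read 131, 128 and 127 CPM in DMSO and 74.6, 81.6 and 80.3 CPM in NXP800, apart at both times (-0.26 ± 0.055 and -0.71 ± 0.056). TIPIN read 57.98, 59.2 and 58.4 CPM in DMSO 6 h and 62.9, 61.7 and 58.4 CPM in NXP800 6 h. At 24 h TIPIN read 44.3, 43.98 and 45.8 CPM in DMSO and 38.7, 34.7 and 36.4 CPM in NXP800. Its 6 h groups overlapped (0.060, adjusted p = 0.427) and its 24 h fall was small (-0.29 ± 0.062, adjusted p = 8.57e-04). The difference in response between the partners TIMELESS and TIPIN was not tested. WDHD1 (AND-1), which ties polymerase alpha to the helicase, had log2 fold changes of -0.42 ± 0.069 and -0.57 ± 0.070. Of the exon length of TIPIN, 21.1% is shared with another gene on the same strand, mainly the pseudogene RPL9P25.

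By the test of the difference between the times, the 24 h log2 fold change lay below that at 6 h for 29 members (background: 13.8%). ORC5 was the single member for which it lay above (background: 12%). The difference did not pass for 22. CDC45 and LIG1 had differences beyond 1 in size (background: 3.54%), at -1.29 ± 0.11 (adjusted p = 1.23e-06) and -1.14 ± 0.11 (adjusted p = 3.66e-06), followed by POLD1 (-0.91 ± 0.12), TICRR (-0.88 ± 0.13) and DBF4 (-0.68 ± 0.096). The median difference was -0.35, against -0.0021 for all tested genes. With the replicate block 35 members lay below and ORC5 above, with CDT1, MCM4, POLA2, PRIM1, POLE2 and RFC4 added (adjusted p = 0.0168, 0.0371, 0.0163, 0.0191, 0.0122 and 0.0391). Of those called, MCM3 lost its call without DMSO 24 h replicate 2 (adjusted p = 0.0514), as did CHAF1B (0.0559) and PCNA (0.0520), and PCNA also without NXP800 6 h replicate 2 (0.0575). CDT1 passed without NXP800 24 h replicate 1 (adjusted p = 0.0424), POLA2 without NXP800 24 h replicate 3 (0.0310), POLE2 without NXP800 6 h replicate 3 (0.0371) and PRIM1 without DMSO 24 h replicate 3 (0.0460). POLA2 also passed with a minimum of 10 counts per library (adjusted p = 0.0489) and by DESeq2's Wald test (0.0491). Members lower at both times whose difference was small and did not pass were ORC1 (0.17 ± 0.13), GMNN (-0.076 ± 0.12), GINS1 (-0.13 ± 0.12), POLD3 (0.020 ± 0.11), RPA1 (0.026 ± 0.095), FEN1 (0.052 ± 0.091), CLSPN (-0.17 ± 0.089), PRIM2 (-0.14 ± 0.12) and WDHD1 (-0.15 ± 0.098). Each time has its own DMSO set, so the 2 responses share no library, but time and library set cannot be told apart. For some members the DMSO level moved more than the NXP800 level. MCM2 and POLE read 185 and 65.1 CPM in NXP800 6 h and 182 and 66.6 CPM in NXP800 24 h. In DMSO they went from 262 and 79.8 CPM to 333 and 109.6 CPM. ORC5 went from 34.4 to 27.7 CPM in DMSO and from 38.8 to 41.7 CPM in NXP800. CDC45 instead went from 67.0 to 25.9 CPM in NXP800 and from 66.6 to 62.9 CPM in DMSO.

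**Figure D4:**
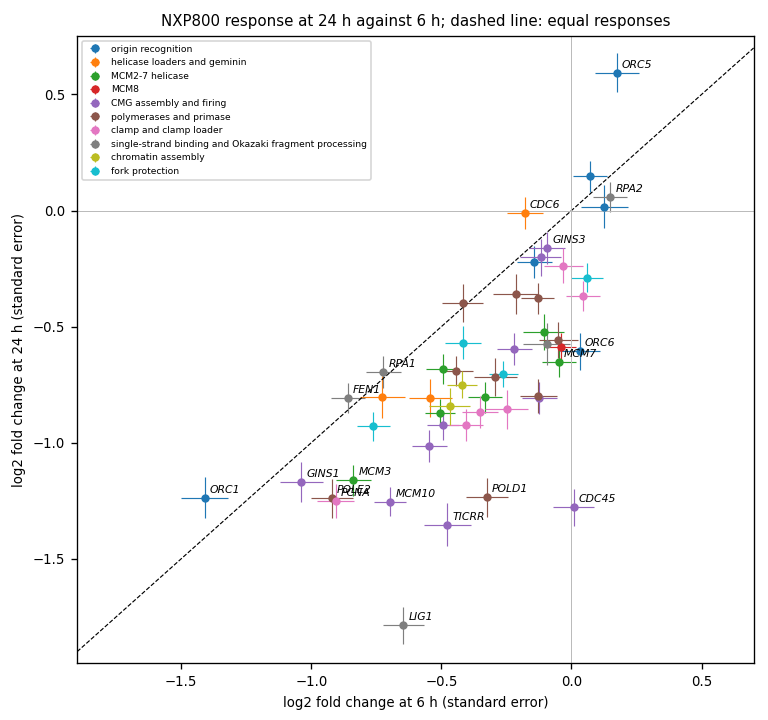
Log2 fold change of each member at 24 h (y axis) against 6 h (x axis), with standard errors, coloured by step. The dashed line marks equal responses. Most members lie below it, CDC45 and LIG1 farthest, ORC1 and RPA1 lie near it, and ORC5 lies above it.

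Other genes of the pathway were taken from 3 lists that held no member. Of 44 further replication genes, 43 were tested, and CHTF8 was not. Of these 25 were lower and 7 higher at 6 h (median log2 fold change -0.25), and 35 lower and 4 higher at 24 h (median -0.69). The background for all 3 lists was 27.8% of tested genes lower and 25% higher at 6 h. At 24 h it was 28.6% lower and 27.5% higher. The steepest falls at 6 h were SKP2 (-2.18 ± 0.12), which marks cell cycle inhibitors and CDT1 for destruction, DSCC1 (-1.18 ± 0.10), part of an alternative clamp loader, and CCNE2 (-0.91 ± 0.13), a cyclin of S phase entry. At 24 h they were PCLAF (-1.67 ± 0.080), a PCNA-binding protein, SKP2 (-1.59 ± 0.12) and RECQL4 (-1.54 ± 0.13), a helicase of origin firing. The topoisomerase TOP1, which relieves the twist ahead of the fork, rose at 6 h (0.75 ± 0.071, adjusted p = 3.26e-07). POLD4, the smallest subunit of polymerase delta, rose at both times (0.58 ± 0.074 and 0.56 ± 0.074), while the other 3 subunits of that enzyme, POLD1 to POLD3, were lower at 24 h. All 6 genes of nucleotide supply were lower at both times, with medians of -0.51 and -1.55, and TK1, the thymidine kinase, fell the most at 24 h (-2.23 ± 0.093). Of 20 mitotic genes, 11 were lower and 3 higher at 6 h (median -0.21), and all 20 were lower at 24 h (median -1.19), KIF20A, a kinesin of cell division, the most (-2.30 ± 0.089). The fall of the mitotic genes moved with that of the members, and its part in the members' fall was not tested.

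**Figure D5:**
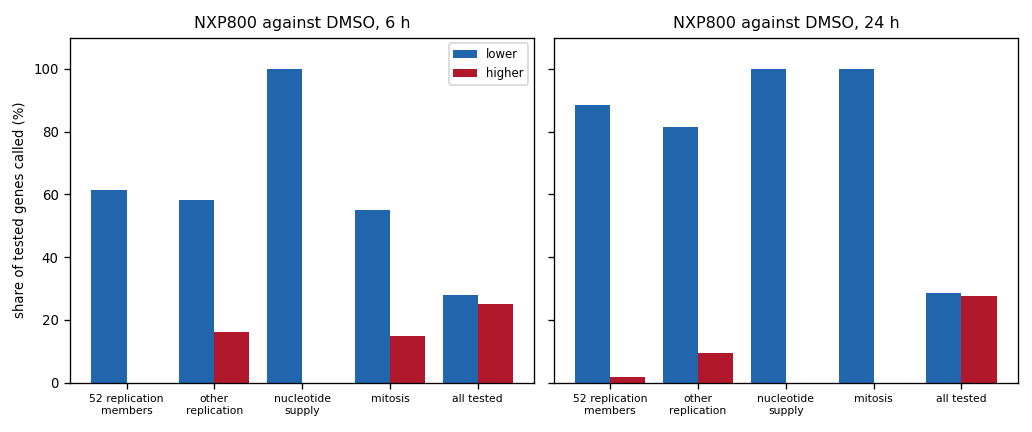
Share of tested genes called lower (blue) or higher (red) at an adjusted p below 0.05 with NXP800 at 6 h (left) and 24 h (right), for the 52 members, 43 other replication genes, 6 genes of nucleotide supply, 20 mitotic genes and all 15979 tested genes. The member bars for lower calls stand at 61.5% and 88.5%, against 27.8% and 28.6% for all tested genes.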

How the data were processed

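Paired-end reads came from 12 stranded mRNA libraries. According to the submitters' processing notes, the authors used fastp 0.20.1 for trimming, STAR 2.7.5a for alignment (hg38) and HTSeq 0.12.4 for counts over RefSeq genes. Raw, unnormalized counts were deposited for each gene symbol. The strand setting and the counting mode are not given in the sources used here. Counter entries that name no gene (8.02 to 12.2% of a library's reads) were left out.

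In R 4.3.3, edgeR 4.0.16 (filterByExpr, TMM scaling, quasi-likelihood test) was fitted in one model of the 4 conditions. The fit was run over all 15979 genes kept, whose common dispersion was 0.00723, with Benjamini-Hochberg adjustment and calls below 0.05. CPM uses TMM-scaled totals. Each library held 30810614 counts or more. Counting error and replicate spread were not separated for single genes. Replicates of a group differed by more than counting noise (chi-square 7.36 to 26.3 per degree of freedom), so none was a duplicate.

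The sources do not say what the replicate numbers in the titles mark, but libraries of a time with the same number were correlated. The study's methods name no block, so the main fit had none and the block was run as an alternative. Once group means were removed, a DMSO and an NXP800 library with a shared number had r of 0.159 to 0.329 across genes, and with different numbers at most 0.058. Genes are not independent replicates.

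The alternatives were DESeq2 1.42.0 (size factors, and its Wald test), library-size scaling, no filter, a minimum of 10 counts per library, fits on just the 6 libraries of a time, the replicate block, an adjusted p below 0.01, and each library left out in turn. The code was tested on simulated counts. Values in every library are given for members beyond 2-fold, for the extremes of each step and for members whose 24 h and 6 h responses differ, and some others. From other lists, up to 3 changes each way are named. Members, lists and tests were chosen with earlier results of these data known.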

Additional observations from a re-analysis of the deposited data

Results flagged for a closer look

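For 30 members the response to NXP800 differed between 24 h and 6 h by edgeR's quasi-likelihood test of the difference itself (adjusted p below 0.05 over all tested genes), given here as the 24 h minus the 6 h log2 fold change. The background was 12% of all tested genes higher and 13.8% lower. ORC5 had the positive value, 0.42. At the origin and the helicase, the values were -0.64 for ORC6, -0.37 for MCM2, -0.32 for MCM3, -0.47 for MCM5, -0.42 for MCM6, -0.60 for MCM7 and -0.55 for MCM8. In firing and helicase assembly they were -0.56 for MCM10, -1.29 for CDC45, -0.47 for GINS2, -0.43 for GINS4, -0.68 for DBF4, -0.88 for TICRR and -0.38 for TOPBP1. Among polymerase subunits they were -0.67 for POLA1, -0.91 for POLD1, -0.51 for POLD2 and -0.42 for POLE. The clamp and its loader had -0.34 for PCNA, -0.41 for RFC1, -0.52 for RFC2, -0.61 for RFC3 and -0.52 for RFC5. The remaining members had -0.48 for RPA3, -1.14 for LIG1, -0.33 for CHAF1A, -0.38 for CHAF1B, -0.44 for TIMELESS and -0.35 for TIPIN. The 24 h and 6 h libraries also differed in the share of reads that the counter assigned to no feature (2.73 to 3.67% against 6.66 to 8.14%). The part of this in the differences was not tested. Groups of 3 libraries were too small for a search for single outlying libraries.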

How the results depend on the processing

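The number of members called lower kept within 1.5 times its main value under each alternative, with 28 to 35 at 6 h and 43 to 47 at 24 h. Members called higher at 6 h numbered 1 with DESeq2's size factors, 2 with only the 6 libraries of the time, 2 with the replicate block and 1 by DESeq2's Wald test, against 0, and at 24 h 2 with library-size scaling and 2 with the block, against 1. The difference between the times had 0 members higher at an adjusted p below 0.01. Library-size scaling moved the 24 h median of the members to -0.62. Of the direction changes, all in values that had not passed, CDC6 at 24 h turned to 0.081 with library-size scaling, 0.0062 with no filter and 0.0087 with the 6 libraries, GINS3 turned to 0.0057 (difference, library-size scaling) and RFC4 to 0.0017 (6 h, the 6 libraries). The cause was not tested. Library-size scaling ended 9 calls, those of CDC6 and PRIM2 at 6 h, of ORC3, CDC7 and RFC4 at 24 h and of the differences of MCM3, POLE, PCNA and CHAF1B, and no filter ended 4, DESeq2's Wald test 3, DESeq2's size factors 2 and the 6 libraries 2. The block changed 13 calls of members, all gained and given above, and no other call. For the difference, a fit of only 6 libraries cannot be made.

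With each library left out in turn, members called higher ranged from 0 to 1 at 6 h and from 1 to 2 at 24 h, and members called lower from 28 to 33 and from 45 to 46. CDT1 minus GMNN, NXP800 minus DMSO at 24 h, ranged from -0.094 to 0.059, turning positive without DMSO 24 h replicate 1 (0.059) or NXP800 24 h replicate 2 (0.041). Values near 0 that changed sign without a library ranged from -0.054 to 0.096 for ORC4 and -0.060 to 0.048 for CDC6 at 24 h. At 6 h they ranged from -0.015 to 0.083 for ORC6, -0.012 to 0.039 for CDC45, -0.094 to 0.013 for POLD2 and -0.067 to 0.035 for RFC4. In the difference they ranged from -0.14 to 0.0085 for GMNN, -0.029 to 0.063 for POLD3 and -0.018 to 0.083 for RPA1.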

Other observations

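Without NXP800, the members' levels differed between the DMSO sets of the 2 times, given here as values with no test, since time and library set cannot be told apart. By mean CPM, 18 members were higher and 34 lower in DMSO 24 h than in DMSO 6 h, with a median log2 difference of -0.063. The largest rises were CDT1 (from 76.9 to 108.2 CPM, log2 difference 0.49), POLE (0.46) and TICRR (0.42). The largest falls were MCM8 (from 88.1 to 57.9 CPM, -0.61), RFC3 (-0.49) and CDC7 (-0.45).

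Other letters searched in the same promoters gave shares closer to those of all tested genes than the E2F words did. The CCAAT box, read on both strands as CCAAT, stood in 27 of 46 members (58.7%), against 41.9% of tested genes with a promoter, and in 8 of the 11 members lowered more than 2-fold at 24 h. The cell cycle homology words TTTGAA and TTCGAA stood in 2 of 46 members (4.35%), against 15.2%. The E2F words stood in 9 of the 35 other replication genes with a promoter (25.7%).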
